A study of Mus musculus with 8 samples.

Results

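Ccl2, Ccl7, Ccl8 and Ccl12 encode the monocyte chemoattractant proteins (MCPs), a family of small secreted CC chemokines, and lie side by side on mouse chromosome 11. They were taken by symbol from the deposited expression table, where all 4 of the 4 were present among 23469 genes and all 4 passed the filter on low values. The group was proposed with the table's AeEM and AeMM values already known, so it counts as selected on that contrast, and the differences of these 4 genes are given below as a description, with no p-value. The libraries were 4 of ascites-enriched embryonic macrophages (AeEMs) and 4 of ascites-enriched monocyte-derived macrophages (AeMMs), prepared by Smart-seq2 from sorted cells. The 8 libraries came from the ascites of 4 mice, so libraries share animals, and the unpaired fit used below treats them as independent. Live single cells were sorted as CD45+, CD11b+ and F4/80+ after cells with Ly6G, Siglec F or Ly6C were gated out, and were then divided by tdTomato. Both came from the malignant ascites of female Ms4a3TdT mice on a C57BL/6 background, injected intraperitoneally at 4 to 5 weeks of age with ID8, a cell line from mouse ovarian surface epithelium, and sampled 65 days later. The labels list no further treatment for either group, and both groups carry the reporter and the tumor, with no tumor-free group among them. In these mice Cre from the Ms4a3 locus, which is active in granulocyte-monocyte progenitors, switches on tdTomato for good. AeMMs are the tdTomato-positive macrophages and AeEMs the tdTomato-negative ones, so an AeEM is defined by a label it lacks and not by a direct mark of embryonic origin.

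CC chemokines are released by macrophages, fibroblasts, mesothelial cells and other cells, bind to glycosaminoglycans and act on G protein-coupled receptors of leukocytes. CCL2 and, in mice, CCL12 act through CCR2, the receptor by which classical monocytes leave the bone marrow and enter inflamed tissue. CCL7 acts through CCR2 and also through CCR1 and CCR3. CCL8 differs between species, and mouse CCL8 is known as an agonist of CCR8, a receptor of certain T helper cells. In the peritoneal cavity these chemokines are known for bringing in monocytes during inflammation.

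Of the 4 genes, Ccl8 and Ccl12 were lower in AeEMs without overlap between the groups, Ccl7 was slightly lower on average, and Ccl2 was close in both groups (mean difference 0.07 on the log2 scale). Ccl8 averaged 211 ± 22.9 TPM in AeEMs and 629 ± 70.8 TPM in AeMMs (SD, n = 4 libraries each), and Ccl12 averaged 114 ± 25.9 TPM in AeEMs and 201 ± 14.0 TPM in AeMMs. Ccl7 averaged 382 ± 51.9 TPM in AeEMs and 458 ± 20.0 TPM in AeMMs. Ccl2, the most abundant of the 4 in AeEMs and in AeMMs alike, averaged 784 ± 116 TPM in AeEMs and 740 ± 54.4 TPM in AeMMs. TPM is a transcript level scaled by gene length and library total, so that levels of different genes can be compared. In these sorted bulk samples fewer expressing cells and less RNA per expressing cell cannot be told apart.

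The genes lie on the plus strand within 81229 bp of mm10. By GENCODE M21, Ccl2 runs from 82035571 to 82037453, Ccl7 from 82045712 to 82047525, Ccl12 from 82101845 to 82103400 and Ccl8 from 82115185 to 82116799. The only other annotated gene that lies wholly between the outermost of them is Ccl11, which encodes the eosinophil chemoattractant eotaxin and lies between Ccl7 and Ccl12. Each protein-coding transcript has 3 exons. That of Ccl2 codes for 148 amino acids, that of Ccl12 for 104 and those of Ccl7 and Ccl8 for 97 each. The longer Ccl2 product carries the C-terminal extension known of rodent CCL2. Their coding sequences around the adjacent cysteines that give CC chemokines their name are shown because the 4 genes are paralogs whose reads have to be kept apart. Each line gives 57 bases, 5′ to 3′, read in frame from the GENCODE M21 transcript across the junction of exons 1 and 2, with the 2 cysteine codons in capitals:
Ccl2: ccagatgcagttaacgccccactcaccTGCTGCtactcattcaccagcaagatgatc
Ccl7: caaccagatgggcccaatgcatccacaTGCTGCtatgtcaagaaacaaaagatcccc
Ccl12: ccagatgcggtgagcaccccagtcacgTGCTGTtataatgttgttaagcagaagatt
Ccl8: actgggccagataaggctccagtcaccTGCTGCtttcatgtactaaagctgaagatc

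Placed on the cysteine codons without gaps, Ccl2 and Ccl12 matched at 36 of these 57 positions, as did Ccl12 and Ccl8, while Ccl7 and Ccl8 matched at 20. Over the whole coding sequence, Ccl12 and Ccl8 were 65.4% identical, Ccl7 and Ccl8 65% and Ccl7 and Ccl12 63.5% in a global alignment. Pairs with Ccl2 were 47.6% to 48.8% identical, with the extension counted as mismatched columns. The longest identical stretch between any 2 of the 4 transcripts was 23 bases, between Ccl2 and Ccl7. The genes are therefore no near-identical copies at the length of a sequencing read. Ccl2 lies within the annotated span of Gm17268, a gene on the opposite strand that was not analysed here.

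Promoters of Ccl12 and Ccl8, the genes with the larger differences, are shown for comparison (RefSeq, GRCm38.p6, plus strand, 250 bases before the annotated start and 50 from it). They are Ccl12 at chr11:82101595-82101894 and Ccl8 at chr11:82114935-82115234. RefSeq promoters were matched for these 2 of the 4 genes. Capitals mark runs of at least 8 bases that are identical in both at aligned positions:
Ccl12: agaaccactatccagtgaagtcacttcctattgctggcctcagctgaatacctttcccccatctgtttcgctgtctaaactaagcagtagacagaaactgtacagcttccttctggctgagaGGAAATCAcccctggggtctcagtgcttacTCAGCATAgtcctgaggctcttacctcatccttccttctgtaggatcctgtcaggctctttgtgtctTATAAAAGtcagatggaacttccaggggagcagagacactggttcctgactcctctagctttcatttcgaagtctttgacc
Ccl8: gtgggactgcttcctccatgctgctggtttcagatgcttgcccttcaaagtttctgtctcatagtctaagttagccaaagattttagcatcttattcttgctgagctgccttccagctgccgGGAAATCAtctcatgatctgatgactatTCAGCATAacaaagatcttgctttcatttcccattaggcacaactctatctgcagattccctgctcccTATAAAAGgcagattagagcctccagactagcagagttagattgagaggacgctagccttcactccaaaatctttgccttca

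Over these windows the promoters of Ccl12 and Ccl8 were 55.7% identical in a global alignment, and 3 runs of 8 bases met the rule for capitals. One of them holds the letters TATAAA, which begin at -31 in Ccl12 and at -32 in Ccl8, counted from the annotated start. TATAAA was found on either strand in 14.2% of 27025 promoter windows of the same length. No match to the AP-1 letters TGANTCA (7.93% of windows), to those of a gamma-activated site, TTCNNNGAA (8.47%), to a kappaB motif (8.18%), to the GC box letters GGGCGG (35.9%) or to the GATA letters AGATAA (11.4%) was found on either strand of these windows in Ccl12 or Ccl8. GAGGAA, as in PU.1 sites (28.3% of windows), was found on the plus strand of Ccl12 at -130, where it overlaps the first run in capitals, and on the minus strand of Ccl8 at -240. The C/EBP letters TTNNNCAA (36.9% of windows) were found in Ccl8 alone of the pair, at -180. A match is a description of letters, not of a bound site.

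The values were used as deposited, on a scale of log2(TPM + 1), and differences are AeEM minus AeMM on that scale. In them the mean of each gene was almost the same in 3 sets of libraries. The sets are the replicate 1 libraries, the replicate 2 libraries and the pooled libraries of replicates 3 and 4. An adjustment between these sets was inferred from the values, and neither the paper nor the labels describe it. Between sets, the means of the 4 genes differed by at most 0.10, whereas the Ccl12 mean of replicates 3 differed from that of replicates 4 by 0.44. In limma, unpaired, 102 of 8801 genes tested were called lower in AeEMs and 110 higher at a Benjamini-Hochberg adjusted p under 0.05. When the fit had the 3 sets as a term (the set-adjusted fit), those counts were 5 and 9. An unadjusted limma p under 0.05 was reached by 1587 of the 8801 genes in the unpaired fit and by 848 in the set-adjusted fit. All 7 macrophage markers checked were measured, among them Lyz2 (65106 to 73024 TPM in AeEMs and 66514 to 81312 TPM in AeMMs), Cd68 and Csf1r. Back-transformed TPM summed to 958862 to 974303 per library. Read counts were not used, so the depth is unknown and no counting interval is given.

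Ccl8 was the gene of the 4 with the widest gap between the groups. It stood at 227, 213, 225 and 178 TPM in AeEM replicates 1 to 4, against 556, 616, 726 and 618 TPM in AeMM replicates 1 to 4. The highest AeEM library lay far below the lowest AeMM library. The 4 libraries of a group stayed within a narrow band, but the adjustment had taken out nearly all spread between the set means beforehand. On the log2 scale Ccl8 averaged 7.72 ± 0.16 in AeEMs and 9.29 ± 0.16 in AeMMs (SD, n = 4 each). The difference of -1.57 (standard error 0.10) is 2.98-fold lower in AeEMs. By set, replicate 1 gave -1.29, replicate 2 gave -1.53, and replicates 3 and 4 gave -1.74. All 3 were negative, but the sets are parts of the contrast on which Ccl8 was selected, so this is a description.

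Ccl12, the other CCR2 ligand of the mouse beside Ccl2 and Ccl7, had 104, 124, 145 and 84.5 TPM in AeEM replicates 1 to 4, against 205, 182, 216 and 200.2 TPM in AeMM replicates 1 to 4. The groups did not overlap, and AeEMs spread more widely than AeMMs, with replicate 3 highest and replicate 4 lowest. Ccl12 averaged 6.82 ± 0.33 in AeEMs and 7.65 ± 0.10 in AeMMs on the log2 scale, a difference of -0.83 (standard error 0.15), or 1.78-fold lower in AeEMs. By set, replicate 1 gave -0.97, replicate 2 gave -0.55, and replicates 3 and 4 gave -0.91.

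Ccl7, a ligand of CCR1, CCR2 and CCR3, had 337, 403, 445 and 341 TPM in AeEM replicates 1 to 4, against 470, 432, 453 and 477 TPM in AeMM replicates 1 to 4. AeEM replicate 3 lay above AeMM replicate 2, so the groups overlapped, while AeEM replicates 1 and 4 were the lowest of the 8. Its difference was -0.27 (standard error 0.09), from 8.57 ± 0.19 in AeEMs and 8.84 ± 0.06 in AeMMs on the log2 scale. By set, replicate 1 gave -0.48, replicate 2 gave -0.10, and replicates 3 and 4 gave -0.26, negative throughout but of uneven size.

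Ccl2, the best known of the family, had 687, 876, 892 and 681 TPM in AeEM replicates 1 to 4, against 789, 663, 761 and 748 TPM in AeMM replicates 1 to 4. AeEM replicates 2 and 3 were above every AeMM library and AeEM replicates 1 and 4 below all of them but replicate 2. The difference was 0.07 (standard error 0.11), from 9.60 ± 0.21 in AeEMs and 9.53 ± 0.11 in AeMMs on the log2 scale. Its sign changed between sets: replicate 1 gave -0.20, replicate 2 gave 0.40, and replicates 3 and 4 gave 0.05. The sets thus give no common direction for Ccl2.

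**Figure D1:**
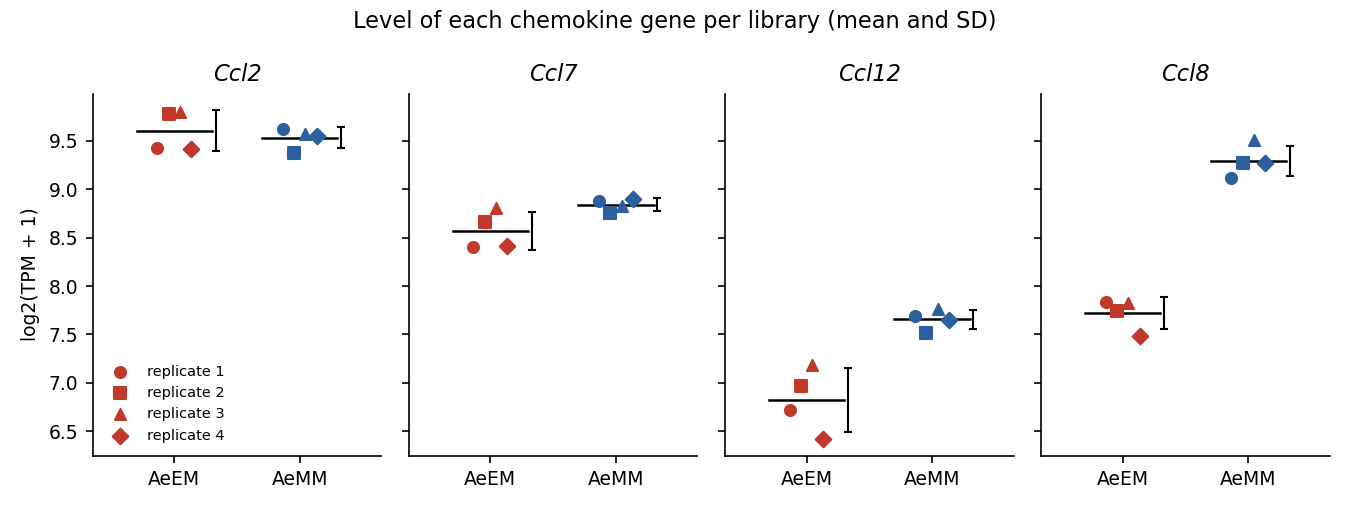
Level of Ccl2, Ccl7, Ccl12 and Ccl8 in log2(TPM + 1) in each library, AeEM (red) and AeMM (blue), with marker shapes for the replicate number, horizontal lines for the mean and vertical bars for the SD of 4 libraries. The groups overlap for Ccl2 and Ccl7 and are apart for Ccl12 (6.42 to 7.19 in AeEMs and 7.52 to 7.76 in AeMMs) and Ccl8 (7.48 to 7.83 in AeEMs and 9.12 to 9.51 in AeMMs).

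Of the 4 genes, 2 were among those called lower in AeEMs by the unpaired fit, Ccl8 and Ccl12, where 1.16% of all genes tested were called lower and 1.25% higher. In the set-adjusted fit, Ccl8 alone remained called, where 0.0568% of genes were called lower and 0.102% higher. The same 2 genes were those without overlap, where 6.53% of the genes tested had all AeEM libraries below all AeMM libraries. Because the 4 genes were selected on these values, the counts describe them and are no evidence about the family. The call of Ccl12 in the unpaired fit was lost without AeEM replicate 1 or 2, without any 1 of the AeMM libraries and without a filter on low values. That of Ccl8 was kept in each of these fits. Kept or lost, a call on a gene selected on these values is a description and no test of that gene.

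Along the chromosome the difference of the selected genes became more negative from Ccl2 to Ccl8. In order of position it was 0.07 for Ccl2, -0.27 for Ccl7, -0.83 for Ccl12 and -1.57 for Ccl8. Each of the 3 sets kept this order, but the sets are parts of the contrast on which the genes were selected. The order is therefore a description. So few genes, selected on these values, cannot show whether the difference depends on position, which was not tested. Ccl2 and Ccl7 are separated by 8258 bp and Ccl12 and Ccl8 by 11784 bp. Ccl11 lies 10297 bp after Ccl7 and 38889 bp before Ccl12. Ccl11 was near zero, with at most 0.35 TPM in an AeEM library and 0.05 TPM in an AeMM library, and was not tested.

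**Figure D2:**
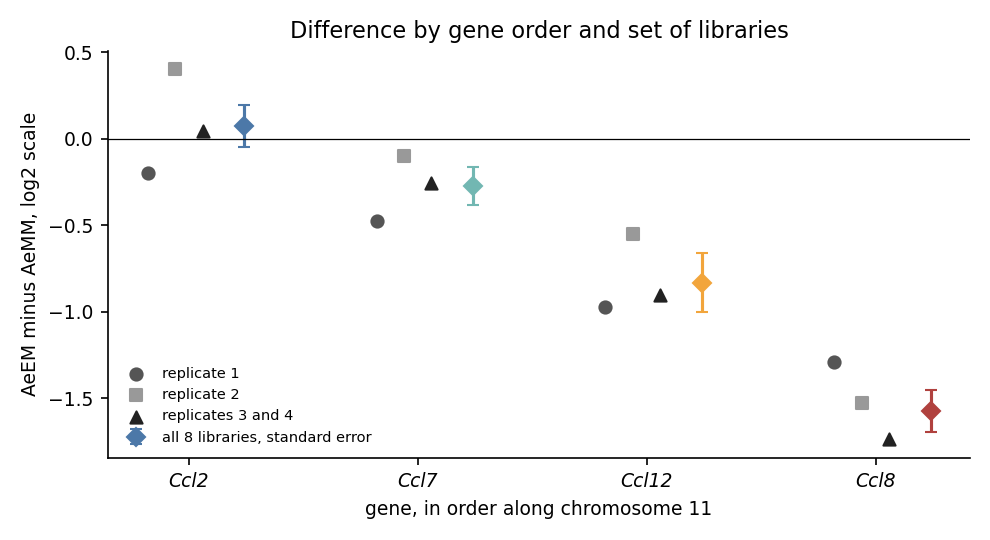
Difference between AeEMs and AeMMs on the log2 scale for the 4 genes in their order on chromosome 11, within each set of libraries (grey and black markers) and over all 8 libraries (colored diamonds, with the standard error of the fit that has the sets as a term). Ccl2 straddles zero, from -0.20 to 0.40, and Ccl8 lies lowest in each set, from -1.29 to -1.74.

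Outside the stretch from Ccl2 to Ccl8 and clear of it, GENCODE M21 annotates 41 genes within 1 Mb, of which 21 were in the table and 8 passed the filter on low values (mean TPM of 1 or more). In limma, 0 of these 8 were called, while 4 had an unadjusted p under 0.05, or 3 in the set-adjusted fit. Over all genes tested, 1587 of 8801 had such a p, or 848 in the set-adjusted fit. Slfn2, a Schlafen family gene of immune cells 948313 bp from the cluster, differed by 0.34 (SE 0.07; limma adjusted p = 0.0502, or 0.31 set-adjusted). Gm11423, a gene annotated as antisense 662802 bp away, had the largest difference of the 8, -1.22 (SE 0.36), with 5.05 ± 3.72 TPM in AeEMs and 11.5 ± 2.19 TPM in AeMMs and overlap between the groups (limma adjusted p = 0.12, or 0.40 set-adjusted). Slfn5, another Schlafen gene on the same side, differed by -0.41 (SE 0.12, with a limma adjusted p of 0.11). Zfp830, which encodes a zinc finger protein, was the nearest tested gene, at 647546 bp. It had 49.3 TPM in AeEMs and 36.9 TPM in AeMMs on average (limma adjusted p = 0.21). Between the cluster and that gene no gene passed the filter. These 4 neighbors were named after their values were seen.

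Summed over the 4 genes, the family reached 1355, 1616, 1708 and 1284 TPM in AeEM replicates 1 to 4, against 2020, 1893, 2156 and 2044 TPM in AeMM replicates 1 to 4. The sum was below every AeMM library in all 4 AeEM libraries. Without Ccl8 it averaged 1280 ± 191 TPM in AeEMs and 1399 ± 83.0 TPM in AeMMs, and the groups overlapped. Of the mean difference of -537 TPM, Ccl8 made up 77.8%, Ccl12 16.1% and Ccl7 14.2%, while Ccl2 ran the other way at -8.16%.

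The makeup of the sum also differed between the groups. Ccl2 held 52.6 ± 1.5% of it in AeEMs and 36.5 ± 1.8% in AeMMs. Ccl8 held 14.2 ± 1.7% in AeEMs and 31.0 ± 2.7% in AeMMs, from 13.2% to 16.7% in AeEM libraries and from 27.5% to 33.7% in AeMM libraries. Ccl7 held 25.6 ± 0.8% in AeEMs and 22.6 ± 1.1% in AeMMs, and Ccl12 7.60 ± 0.78% in AeEMs and 9.90 ± 0.23% in AeMMs. Each of the 4 shares was apart between the groups, although shares of 1 sum are bound to each other. In AeEMs the order of the levels was Ccl2, Ccl7, Ccl8, Ccl12 in every library. In AeMMs it was Ccl2, Ccl8, Ccl7, Ccl12 in every library, so that Ccl7 and Ccl8 changed places. The ratio of Ccl8 to Ccl7 was 0.672, 0.528, 0.506 and 0.521 in AeEM replicates 1 to 4, against 1.18, 1.42, 1.60 and 1.29 in AeMM replicates 1 to 4. The ratio of Ccl8 to Ccl2 was 0.27 ± 0.04 in AeEMs and 0.85 ± 0.11 in AeMMs. Ccl2 ranked 95th, Ccl7 165th, Ccl8 167th and Ccl12 384th by mean TPM among the 8801 genes tested.

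**Figure D3:**
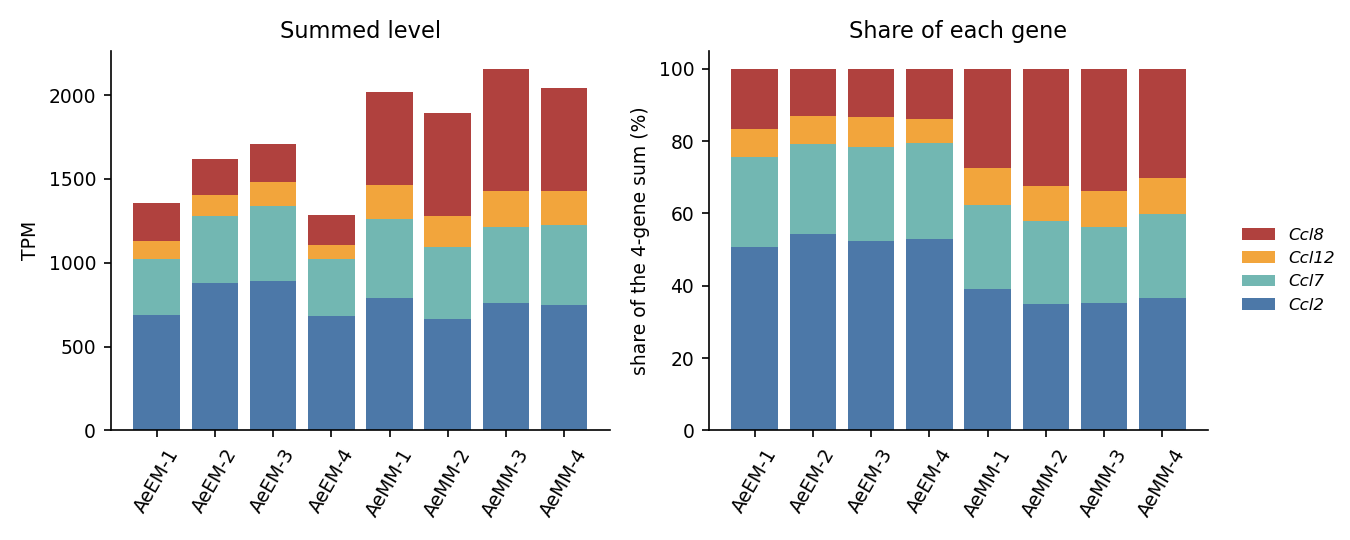
Summed TPM of the 4 genes (left) and the percent each gene holds of that sum (right) in the 4 AeEM and the 4 AeMM libraries. The sum runs from 1284 to 1708 TPM in AeEMs and from 1893 to 2156 TPM in AeMMs, and the share of Ccl8 from 13.2% to 16.7% in AeEMs and from 27.5% to 33.7% in AeMMs.

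In AeEMs, Ccl2, Ccl7 and Ccl12 moved together from library to library and Ccl8 followed them less. These 3 genes were above their group mean in replicates 2 and 3 and below it in replicates 1 and 4. Ccl8 was instead above its mean in replicate 1 as well, by 0.11 on the log2 scale, where Ccl2 deviated by -0.18. In AeMMs, whose deviations of these 3 genes were smaller, they shared their sign in replicates 1 and 2 but not in replicate 3, where Ccl7 was at -0.01 and Ccl12 at 0.11, nor in replicate 4, where Ccl7 was at 0.06 and Ccl12 just below zero. In AeMM replicate 1 the signs were the other way round, with Ccl8 at -0.17 and Ccl2 at 0.09. Over the 8 libraries, the deviations from the group means had a Pearson r of 0.93 between Ccl2 and Ccl7, 0.89 between Ccl2 and Ccl12 and 0.88 between Ccl7 and Ccl12. Between Ccl8 and Ccl2, Ccl7 and Ccl12 it was 0.28, 0.25 and 0.61. These r are descriptions with no test. The adjusted set means tie the libraries together, so that only 4 of the 8 deviations can vary freely, and genes of 1 library share its depth and preparation.

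**Figure D4:**
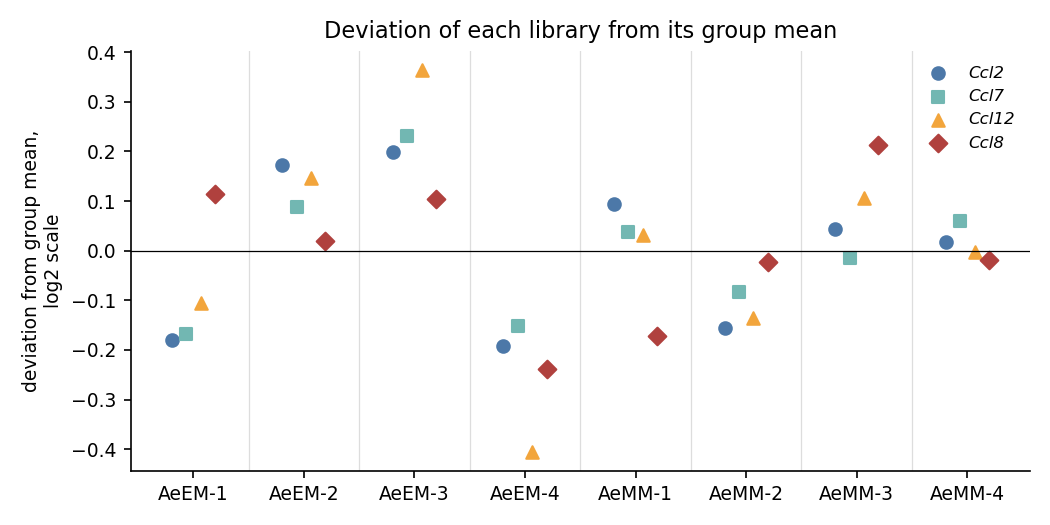
Deviation of each library from the mean of its group, on the log2 scale, for Ccl2, Ccl7, Ccl12 and Ccl8. Ccl2, Ccl7 and Ccl12 share their sign in each AeEM library and in AeMM replicates 1 and 2, and Ccl8 has the opposite sign in AeEM replicate 1.

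Among the 3108 other genes at a mean TPM of 10 or more, those most like each of the 4 over the 8 libraries were picked by Pearson r, as a description. For Ccl8 they were Lair1, an inhibitory collagen receptor of leukocytes (r = 0.997), Stab1, the scavenger receptor stabilin-1 (0.994), and Fam43a (0.994). Fam43a averaged 3.69 ± 0.09 in AeEMs and 4.92 ± 0.17 in AeMMs, Stab1 5.65 ± 0.08 in AeEMs and 6.35 ± 0.11 in AeMMs, and Lair1 4.17 ± 0.06 in AeEMs and 4.60 ± 0.06 in AeMMs, all in log2(TPM + 1). For Ccl12 they were Tmem205 (0.997), Ms4a6c (0.989) and Glul, glutamine synthetase (0.983), and for Ccl7 Gsr, glutathione reductase (0.965), Pdcl (0.956) and Ms4a6c (0.950). The 3 genes most like Ccl8, and those most like Ccl12 and Ccl7, had lower means in AeEMs, as the choice by likeness brings with it. For Ccl2 they were Ddx56, an RNA helicase (0.956), Slc25a5, a mitochondrial ADP/ATP carrier (0.945), and Myl12a, a myosin light chain (0.938). By the deviations from the group means alone, Ccl8 was most like Clec10a (0.991), Rplp0 (0.980) and Tbcc (0.976), Ccl12 like Tmem205 (0.991), Rnase6 (0.987) and Gmfb (0.983), Ccl7 like Asah1 (0.963), Ms4a6b (0.958) and Slc25a5 (0.946), and Ccl2 like Ddx56 (0.987), Itpripl1 (0.977) and Ccdc32 (0.973). Ccl2 and Ccl7 shared Slc25a5, and Ccl7 and Ccl12 shared Ms4a6c, across these rankings. Within the family, Ccl12 had an r over the values of 0.93 with Ccl7 and of 0.93 with Ccl8, and Ccl7 had 0.75 with Ccl8. Pairs with Ccl2 ran from -0.19 to 0.43. A higher r with Ccl7 than that of Ccl12 was found for 13 genes, and a higher r with Ccl8 for 65.

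The receptors of these ligands were measured in the same libraries, and none of the 4 tested passed the threshold in limma (0 also at an unadjusted p under 0.05, and 0 in both counts in the set-adjusted fit). Ccr2, the receptor of CCL2, CCL7 and CCL12, averaged 182 ± 42.0 TPM in AeEMs and 152 ± 22.8 TPM in AeMMs (difference 0.24, 95% interval -0.12 to 0.61, limma adjusted p = 0.48). Ccr1, a receptor of CCL7, averaged 329 ± 52.6 TPM in AeEMs and 345 ± 43.5 TPM in AeMMs (difference -0.07, interval -0.36 to 0.21, limma adjusted p = 0.83). Libraries of both groups thus held transcripts of ligands and of 2 of their receptors. Ccr3 was low, at 1.28 ± 1.05 TPM in AeEMs and 0.92 ± 0.41 TPM in AeMMs (limma adjusted p = 0.82). Ccr8, the receptor of mouse CCL8, reached at most 0.03 TPM in an AeEM library and 0.04 TPM in an AeMM library. Of the atypical receptors, which take up chemokines without signaling, Ackr1 averaged 0.80 ± 0.71 TPM in AeEMs and 0.24 ± 0.18 TPM in AeMMs, Ackr4 was near zero, and Ackr2 was not analysed here.

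Of the 12 other CC chemokine genes measured, 9 were tested, and of these 0 were called higher and 0 lower in limma. An unadjusted limma p under 0.05 was found for 5 of them, or 4 in the set-adjusted fit. Over all 8801 genes tested it was found for 1587, or 848 in the set-adjusted fit. The median difference was -0.06 against -0.01 over all genes tested. Ccl6 and Ccl9, rodent chemokines that act on CCR1, were the most abundant. Ccl6 averaged 19569 ± 1181 TPM in AeEMs and 20359 ± 1537 TPM in AeMMs (difference -0.06, limma adjusted p = 0.73). Ccl9 averaged 3391 ± 288 TPM in AeEMs and 2795 ± 271 TPM in AeMMs (difference 0.28, limma adjusted p = 0.13). Ccl24, eotaxin-2, averaged 164 ± 40.1 TPM in AeEMs and 223 ± 19.2 TPM in AeMMs (difference -0.47, limma adjusted p = 0.17), and Ccl3, MIP-1α, 195 ± 22.8 TPM in AeEMs and 211 ± 33.5 TPM in AeMMs (difference -0.11, limma adjusted p = 0.72). Ccl17 and Ccl22, ligands of CCR4, had positive differences of 1.89 and 1.72 that missed the threshold (limma adjusted p = 0.067 and 0.084, and 0.27 and 0.32 in the set-adjusted fit). They were named after their values were seen. Ccl17 ran from 3.05 to 17.8 TPM in AeEMs and from 0.86 to 3.51 TPM in AeMMs. Ccl22 was low, from 0.91 to 5.33 TPM in AeEMs and from 0 to 0.85 TPM in AeMMs. Ccl17 passed with a filter of 5 TPM (limma adjusted p = 0.042), and without AeEM replicate 4 both passed (0.017 and 0.042). With no filter on low values neither passed (limma adjusted p = 0.21 and 0.25).

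Genes of the signaling that is known to switch on these chemokines were compared next. Of 8 NF-κB genes, 0 were called in limma (1 with an unadjusted p under 0.05, and 0 in the set-adjusted fit), and the median difference was 0.03. Nfkbia, an NF-κB inhibitor and itself a target, averaged 541 ± 22.1 TPM in AeEMs and 536 ± 12.3 TPM in AeMMs (difference 0.01, 95% interval -0.10 to 0.13). Rela, Nfkb2 and Ikbkb had differences of -0.18, 0.43 and 0.04, with limma adjusted p of 0.67, 0.29 and 0.85. Of 10 interferon and STAT factors, 0 were called (1 with an unadjusted p under 0.05, and 0 in the set-adjusted fit), with a median of 0.01. Irf7, Irf9, Irf1 and Irf8 had differences of 0.12, -0.25, 0.07 and -0.08, with limma adjusted p of 0.74, 0.39, 0.82 and 0.70.

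Of 11 receptors upstream of these factors that were tested, 0 were called in limma (2 with an unadjusted p under 0.05, and 1 in the set-adjusted fit), with a median difference of -0.09. Csf1r, the receptor of the macrophage growth factor M-CSF, averaged 166 ± 12.8 TPM in AeEMs and 202 ± 10.5 TPM in AeMMs, without overlap (difference -0.28, limma adjusted p = 0.082, and 0.41 in the set-adjusted fit). Ifngr1, Tnfrsf1a and Il10rb, receptor chains for interferon-γ, TNF and IL-10, had differences of 0.06, -0.15 and -0.09, with limma adjusted p of 0.68, 0.58 and 0.63.

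Immediate early genes, which rise when cells are handled, were also compared because Ccl2 and Ccl7 are known as early-response genes. Of 10, 0 were called in limma (0 with an unadjusted p under 0.05 in either fit), with a median difference of -0.02. Ier3, Zfp36, Junb and Fos had differences of -0.08, 0.04, 0.13 and -0.14, with limma adjusted p of 0.74, 0.84, 0.74 and 0.56. Of 4 inflammatory cytokine genes tested, 0 were called (0 with an unadjusted p under 0.05 in either fit). Cxcl2, Tnf, Il1b and Cxcl1 had differences of 0.63, -0.45, -0.42 and -0.27 at low levels, with limma adjusted p of 0.51, 0.41, 0.72 and 0.74. Among proteases known to cut CC chemokines, 0 of 3 tested were called (2 with an unadjusted p under 0.05, and 1 in the set-adjusted fit). Mmp14, Mmp9 and Mmp12 had differences of -0.44, 0.45 and 0.10, with limma adjusted p of 0.11, 0.19 and 0.88.

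**Figure D5:**
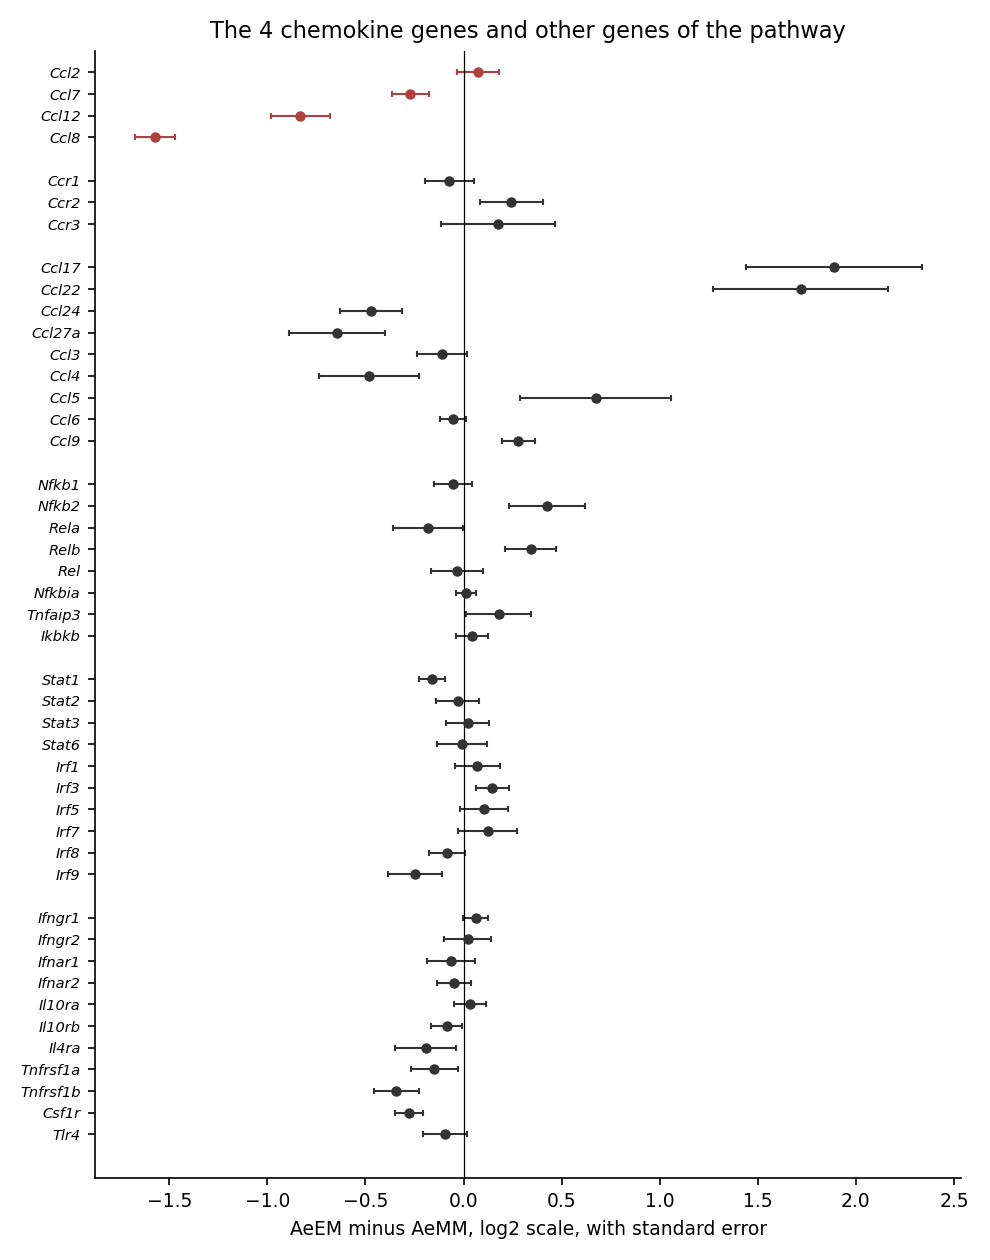
Difference between AeEMs and AeMMs on the log2 scale, with the standard error of the unpaired limma fit (n = 4 libraries per group), for the 4 chemokine genes (red) and, below them in blocks, receptors, other CC chemokines, NF-κB genes, interferon and STAT factors and upstream receptors. Ccl8 lies lowest at -1.57, Ccl17 highest at 1.89, and the receptors Ccr1 and Ccr2 lie at -0.07 and 0.24.

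Markers of other cells were read beside these values. Among them 4 genes were called lower in AeEMs, S100a8, Nkg7, Ly6c2 and Chil3, and 2 higher, Cd209a and Itgax. Over all genes tested, 1.16% were called lower and 1.25% higher. Those called were 1 of 1 neutrophil, 2 of 4 monocyte, 2 of 2 dendritic cell and 1 of 1 T and NK cell markers tested. No tested B cell, eosinophil, mesothelial, epithelial or erythroid marker was called. In the set-adjusted fit Cd209a alone stayed called. By design the gate on CD45 leaves out fibroblasts and mesothelial cells, which are known sources of CCL2. The gates on Ly6G and Ly6C are meant to leave out neutrophils and classical monocytes. The purity of the sorted cells was not tested here. The 4 fibroblast markers summed to 0.19 to 1.54 TPM in AeEMs and 0.43 to 1.32 TPM in AeMMs, with Col1a1, Col1a2 and Pdgfra under 0.1 TPM in every library. The 5 mesothelial markers summed to 1.81 to 3.21 TPM in AeEMs and 2.69 to 3.75 TPM in AeMMs, with Msln, Wt1 and Lrrn4 under 1 TPM in every library. Of 4 monocyte markers, 2 were lower in AeEMs like Ccl8, while Ccr2 had a positive difference of 0.24 that did not pass (limma adjusted p = 0.48). Ly6c2 ran from 0.16 to 2.43 TPM in AeEMs and from 3.68 to 6.51 TPM in AeMMs (limma adjusted p = 0.048), and Chil3 from 0.25 to 2.56 TPM in AeEMs and from 4.54 to 15.4 TPM in AeMMs (limma adjusted p = 0.043), and neither passed in the set-adjusted fit (limma adjusted p = 0.25 and 0.20). All 4 monocyte markers together, most of which is Ccr2, summed to 161 to 252 TPM in AeEMs and 151 to 194 TPM in AeMMs. The 4 neutrophil markers measured summed to 10.5 to 12.7 TPM in AeEMs and 19.9 to 30.4 TPM in AeMMs, nearly all of it S100a8 (limma adjusted p = 0.0044, or 0.060 set-adjusted) and with Mpo under 0.1 TPM. The 5 T and NK cell markers summed to 0.20 to 3.39 TPM in AeEMs and 4.72 to 16.5 TPM in AeMMs, with Nkg7 at 0.16 to 1.69 TPM in AeEMs and 3.55 to 11.03 TPM in AeMMs (limma adjusted p = 0.011, or 0.071 set-adjusted) and Cd3e under 1 TPM in every library. Dendritic cell markers ran the other way, with a sum of 5 genes of 43.4 to 102 TPM in AeEMs and 5.39 to 11.2 TPM in AeMMs, with Cd209a at 36.01 to 96.1 TPM in AeEMs and 1.95 to 8.01 TPM in AeMMs (limma adjusted p = 0.0029, or 0.033 set-adjusted) and with Flt3 and Zbtb46 under 1 TPM in every library. Itgax, which encodes CD11c, ran from 3.81 to 6.45 TPM in AeEMs and from 1.94 to 2.45 TPM in AeMMs (limma adjusted p = 0.011, or 0.11 set-adjusted). Erythroid transcripts summed to 6953 to 11633 TPM in AeEMs and 3736 to 9569 TPM in AeMMs, with limma adjusted p of 0.21 for Hba-a1, 0.17 for Hbb-bs and 0.62 for Alas2. The part of these cells in the differences of Ccl8 and Ccl12 was not tested.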

How the data were processed

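Macrophages from 4 mice were gated and sorted by the authors into tdTomato-negative and tdTomato-positive cells, in 4 experimental runs, and libraries were made by Smart-seq2. Reads were cleaned with fastp, mapped with STAR 2.7.2a to mm10 and counted with Subread featureCounts. The table deposited by the authors holds log2 values, log2(TPM + 1), which by their set means appear adjusted between sets of libraries. The conversion, the adjustment and the annotation are not given in the sources used here.

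Differences were fitted in limma 3.58.1 under R 4.3.3 over the 8801 genes whose mean TPM was 1 or more, unpaired with a mean-variance trend, as the study's statistics section names unpaired limma tests. Adjusted p are Benjamini-Hochberg values over all genes tested. TPM are 2 to the power of the value, minus 1, with negative results set to 0. The labels call the replicates biological. The 8 libraries came from 4 mice, but that equal numbers mark the same mouse is not stated. The unpaired p-values ignore the shared mice and measure the spread between these libraries as adjusted. The SDs, standard errors and ranges are also those of the adjusted values. The adjustment had already taken out nearly all spread between the set means. Only 4 of the 8 deviations can then vary freely, which the unpaired fit does not allow for, so its p-values tend to be too small. As alternatives, pseudocounts of 0.1 and 5, no filter, a filter of 5 TPM, quantile and median-of-ratios scaling, a replicate block and a term for the 3 sets were tried, and each library was left out in turn. Alignments used Biopython 1.88. Other genes named were the receptors, up to 4 of each list by level, and the 3 most alike per gene. The 4 genes, the lists and the alternatives were chosen with earlier results of these data known. Some genes of the lists are counted but not reported here by name.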

Additional observations from a re-analysis of the deposited data

Results flagged for a closer look

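The ratio of Ccl8 to Ccl7 in AeEM replicate 1, at 0.672, stood apart from the other 3 AeEM libraries (0.506 to 0.528), with a gap to the nearest that took up 0.870 of the range of the group. Its level of Ccl8, 227 TPM, was the highest and its level of Ccl7, 337 TPM, the lowest among AeEMs. In all, 38 groups of 4 libraries were checked in this way, and chance alone marks about 1 in 20. The ratio was still below the lowest AeMM library, at 1.18.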

How the results depend on the processing

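Genes called higher in AeEMs numbered 110 and genes called lower in AeEMs 102 in the unpaired fit. The term for the 3 sets gave 9 higher and 5 lower, the replicate block 3 and 2, and replicates 3 and 4 only 0 and 0, where 566 genes had an unadjusted limma p under 0.05. With 1 library left out, genes called higher in AeEMs ran from 40 to 106 and genes called lower in AeEMs from 31 to 113. Both counts were smaller by over 1.5 times when the library left out was number 1 or 2 of either group, or number 4 of the AeMMs. The libraries share 4 mice, but whether replicate numbers pair them could not be checked, because the adjustment makes deviations within a set mirror each other. Ccl8 kept its call in every fit but that of replicates 3 and 4 only, where its difference was -1.74, and Ccl12 lost its call with the replicate block as well. Both genes were selected on these values, so their calls describe them and are no test. In comparisons added after seeing the data, with no test, replicate 1 only gave -0.20 for Ccl2, -0.48 for Ccl7 and -1.29 for Ccl8, and replicate 2 only gave 0.40 for Ccl2, -0.10 for Ccl7 and -0.55 for Ccl12. Of the 59 other genes followed, none of which was called in the unpaired limma fit, Ccl17 newly passed in 2 fits and Ccl22 in 1. The causes of these changes were not tested.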
